A study of Mus musculus with 30 samples.

Results

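Cerebellum RNA of female R191H mice fed 2BAct was compared with that of all WT females of the same experiment, to measure what still differed from WT in treated mutants. The comparison holds 9 of the 30 libraries of the series, chosen by their labels: 3 of R191H + 2BAct, 3 of WT + 2BAct and 3 of WT + placebo, each from 1 mouse. R191H mice are homozygous for a knock-in of the R191H point mutation in Eif2b5, the gene of the epsilon subunit of eIF2B, made on C57BL/6J as a floxed allele, and WT mice lack it. The mice were 2 months old by the labels. They had received meal holding 300 µg 2BAct per g, or the same meal without compound (placebo, called vehicle in the labels), for 1 month. R191H + placebo, the untreated mutant (3 libraries), did not enter the main test. It shows how large each change is without treatment, and it enters the interaction test and the scaling of displayed CPM. The 18 libraries of untreated male mice define a list of R191H genes and give male values for a few single genes. The knock-in was carried by every cell of the mouse, and all libraries are of whole cerebellum, so fewer cells of a type and less RNA per cell cannot be told apart.

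eIF2B is the exchange factor that reloads eIF2 with GTP, which each round of translation initiation needs. Phosphorylated eIF2 inhibits it. When its activity falls, general translation slows while mRNAs such as that of the transcription factor ATF4 are translated more, and ATF4 induces genes for amino acid uptake, amino acid synthesis and tRNA charging. This program is the integrated stress response (ISR). Mutations that lower eIF2B activity cause Vanishing White Matter, a leukodystrophy. 2BAct is a small molecule that activates eIF2B. ISR transcripts in cerebellum are a readout of how active it is.

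The unit is the number of reads that map to 1 gene alone (unique reads). The 9 libraries held between 12983649 and 18619411 of them, and 18.8% to 23.3% of these came from the mitochondrial ribosomal RNA mt-Rnr2. Levels are given as CPM, the reads of a gene scaled to library size with TMM factors, and differences as log2 fold-change of R191H + 2BAct over the 6 WT libraries from edgeR's quasi-likelihood test, with a p adjusted over all genes tested. Markers of cerebellar neurons were read in both groups, but no other tissue was set beside them, so they do not test the tissue label. Summed markers of granule cells lay between 2873 and 3202 CPM in R191H + 2BAct and between 2879 and 3432 CPM in WT. Those of Purkinje cells lay between 3481 and 3857 CPM in R191H + 2BAct and between 3483 and 4178 CPM in WT. Eif2b5 itself was at 71.2, 64.9 and 71.0 CPM in R191H + 2BAct and between 59.8 and 69.4 CPM in WT (median 64.4), a log2 fold-change of 0.10 (SE 0.062). A point mutation need not change the transcript level, and the counts hold no sequence, so they do not check the genotype.

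3 sequences are shown. Scarna6 is the transcript of the gene that was higher than WT past the threshold. It is a small Cajal body RNA, of the kind that guides modification of spliceosomal RNAs, and lies at chr1:87784556-87784820 on the + strand (GRCm38, GENCODE), within an intron of Atg16l1. In its sequence, 5′ to 3′, capitals mark the first TGATGA and the last CTGA, the letters of a C box and a D box. The other 2 are promoters (RefSeq, GRCm38.p6) of genes higher in untreated R191H mice, shown for context, from 250 bases before to 50 bases after the start, with capitals on the letters TGATGNAA on either strand, which are part of the element bound by ATF4 with C/EBP factors. The Nupr1 promoter is chr7:126625421-126625720 on the - strand, and the Slc7a11 promoter is chr3:50443564-50443863 on the - strand.
Scarna6: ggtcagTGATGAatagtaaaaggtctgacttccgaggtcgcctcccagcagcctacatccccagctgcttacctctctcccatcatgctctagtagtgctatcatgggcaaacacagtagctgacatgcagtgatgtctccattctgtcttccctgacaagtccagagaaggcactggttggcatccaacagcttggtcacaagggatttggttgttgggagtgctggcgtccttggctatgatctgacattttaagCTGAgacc
Nupr1 promoter: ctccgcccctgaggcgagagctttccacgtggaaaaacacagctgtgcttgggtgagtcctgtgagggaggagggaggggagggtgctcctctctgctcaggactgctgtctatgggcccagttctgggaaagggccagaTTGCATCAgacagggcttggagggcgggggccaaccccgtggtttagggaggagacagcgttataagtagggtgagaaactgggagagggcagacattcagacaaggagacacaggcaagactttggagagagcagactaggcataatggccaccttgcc
Slc7a11 promoter: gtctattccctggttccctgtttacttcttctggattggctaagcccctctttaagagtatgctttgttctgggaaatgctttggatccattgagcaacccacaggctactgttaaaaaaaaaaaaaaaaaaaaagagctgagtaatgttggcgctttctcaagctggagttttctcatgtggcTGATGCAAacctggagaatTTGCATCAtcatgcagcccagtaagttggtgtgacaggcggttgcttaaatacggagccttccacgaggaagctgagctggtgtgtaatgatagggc

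Across the transcriptome, R191H + 2BAct was close to WT. Of 10159 genes tested, 3 (0.0295%) had an adjusted p under 0.05, and none of them is a known ISR gene. The ribosomal RNA Rn18s-rs5 and the unclassified transcript Gm42607 were lower (0.0197% of genes), and Scarna6 was higher (0.00984%). Scaled to library totals in place of TMM, 5 genes passed, 0 higher and 5 lower, and DESeq2 called 9, 3 higher and 6 lower. At an unadjusted p under 0.05 there were 557 genes (5.48%), 267 higher (2.63%) and 290 lower (2.85%). The median log2 fold-change of all genes was -0.0016, 80% of genes lay between -0.18 and 0.18, and the median standard error was 0.099.

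Rn18s-rs5, annotated as an 18S ribosomal RNA related sequence (chr17:39846353-39848827 on the - strand, GRCm38, overlapping AY036118 and, on the other strand, Gm42418), had 1605, 1586 and 1283 CPM in R191H + 2BAct and between 1778 and 2416 CPM in WT (median 2308). The groups did not overlap, and the log2 fold-change was -0.59 (SE 0.084, adjusted p = 0.00689). Ribosomal RNA was removed before the libraries were made, so this is what the removal left. In R191H + placebo it stood at 87184, 2533 and 3991 CPM, so that the 3 libraries of that group differed among themselves more than the groups compared here. Scarna6 had 80.6, 82.8 and 83.4 CPM in treated mutants and between 59.2 and 69.7 CPM in WT (median 63.2), each treated mouse above each WT mouse (log2 fold-change 0.36, SE 0.061, adjusted p = 0.0324). R191H + placebo, at 59.6, 75.4 and 79.0 CPM, lay across both. Gm42607, inside an intron of the kinase gene Dclk1 on the same strand (chr3:55483788-55487180, GRCm38), had 20.8, 25.5 and 22.9 CPM against 30.8 to 32.9 CPM in WT (median 32.2), with a log2 fold-change of -0.47 (SE 0.080, adjusted p = 0.0324). Reads from that intron and from Gm42607 cannot be told apart. Scarna6 passed in 6 of 22 other settings, Gm42607 in 6 of 22 and Rn18s-rs5 in 18 of 21, and without R191H + 2BAct replicate 3 no gene passed.

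**Figure D1:**
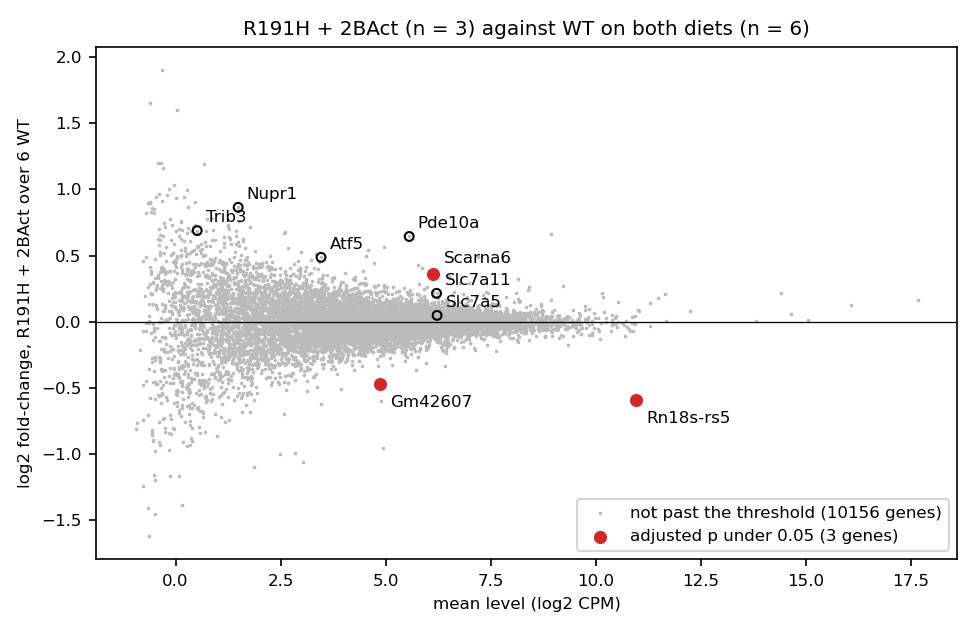
Log2 fold-change of R191H + 2BAct (n = 3) over WT on both diets (n = 6) against mean level in log2 CPM for 10159 genes. Red points are the 3 genes with an adjusted p under 0.05, and open circles mark 6 other genes described in the text, which include the ISR genes Trib3 (0.69), Nupr1 (0.87) and Atf5 (0.49).

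Of the 10 genes with the smallest p, 4 were protein-coding, did not pass the threshold and had groups that did not overlap. Across all genes tested, groups did not overlap for 2.68%. The 4 were chosen by p from these same libraries, so their lack of overlap adds no support. Pde10a, a phosphodiesterase of cyclic nucleotides, had 66.8, 47.4 and 71.6 CPM in R191H + 2BAct and between 29.8 and 46.3 CPM in WT (log2 fold-change 0.64, adjusted p = 0.0739). Rfx7, a transcription factor, had 11.9, 12.1 and 11.7 CPM against 15.1 to 18.3 CPM (-0.51, adjusted p = 0.0739). Mapre2, a microtubule plus-end protein, had 42.0, 45.4 and 44.2 CPM against 50.05 to 62.5 CPM (-0.36, adjusted p = 0.0739). Tob2, an antiproliferative regulator of mRNA deadenylation, had 67.7, 73.1 and 78.4 CPM against 84.1 to 105.6 CPM (-0.33, adjusted p = 0.172). R191H + placebo showed like levels for Pde10a, Mapre2 and Tob2, for example 66.7, 48.6 and 71.4 CPM for Pde10a and 79.0, 60.0 and 66.4 CPM for Tob2. Of the others in the 20 smallest p-values, the pseudogene Gm15381 was at -1.06, Gm10801 at -1.10 and Rsrp1 at -0.62. The protease gene Lgmn (0.52), the linker histone Hist1h1b (0.68) and 8 small nuclear or nucleolar RNAs had values above 0. All of these had an adjusted p of 0.0739 or more in the main test. DESeq2 did call Rfx7, Mapre2, Tob2, Gm15381 and the small RNAs Scarna10 and Snora15. Rfx7, Mapre2 and Gm15381 also passed with library totals in place of TMM, and Pde10a passed without R191H + 2BAct replicate 2.

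Of the ISR transcripts in the lists, none passed the threshold in treated mutants with edgeR. Limma on the deposited ln TPM, where the median of all genes was -0.30, called, among the ISR genes named here, Trib3 higher (0.50) and Ppp1r15a lower (-0.54). The TPM of Trib3 was 0.0217, 0.0260 and 0.0533 in R191H + 2BAct and between 0.0170 and 0.0294 in WT. These groups overlapped at very low values, so the call adds little to the counts. The targeted panel has 15 transcripts, of which 8 are in the table and 7 had reads enough for the test. 6 of the 7 were above WT and 1 below, with a median log2 fold-change of 0.12 against -0.0016 for all genes. 2 had an unadjusted p under 0.05 in the upward direction, which 2.63% of all genes had, and 2 had each treated mouse above each WT mouse, as 1.24% of all genes had. In R191H + placebo against WT + placebo, 5 of the same 7 passed the threshold, where 0.774% of genes did, and their median was 1.30. A wider curated ISR list, which shares genes with the panel, had 36 members tested in treated mutants. Its median was 0.014, with 23 above WT and 13 below. An unadjusted p under 0.05 was found for 4 of the 36, all higher, where 2.63% of all genes were.

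Among the transcription factors, Atf4, the central factor, was at 120.5, 115.3 and 119.8 CPM in R191H + 2BAct and between 98.6 and 119.3 CPM in WT (log2 fold-change 0.12, SE 0.062, adjusted p = 0.941). Atf5, a factor that is itself induced in the ISR, had 12.3, 12.5 and 15.7 CPM in treated mutants, against 7.06 to 11.7 CPM in WT (median 9.44) and 70.7, 70.8 and 73.4 CPM in R191H + placebo. All 3 treated mice were above all 6 WT mice and far below the untreated mutants. The log2 fold-change was 0.49 (95% interval 0.19 to 0.79, adjusted p = 0.657), a 1.40-fold level, beside 2.87 without treatment. The gene overlaps Nup62 and Il4i1 on the other strand, and whether counting used strand is not given in the sources used here. Ddit3, the factor CHOP, had 9.58, 7.17 and 8.09 CPM in treated mutants, within the WT range of 5.92 to 10.4 CPM, and 18.9, 17.4 and 17.8 CPM in R191H + placebo. Nupr1, a stress-induced chromatin protein, had 3.54, 3.13 and 4.81 CPM, against 1.42 to 3.65 CPM in WT (median 1.86) and 16.5, 15.9 and 20.2 CPM in R191H + placebo. The treated and WT groups overlapped by 1 WT library (log2 fold-change 0.87, 95% interval 0.30 to 1.44, adjusted p = 0.791). That library, WT + 2BAct replicate 2, stood apart from the other WT libraries for this gene. In the deposited TPM, Atf5 and Nupr1 held 1 shared constant (0.301) in all 9 libraries of the comparison. That measure therefore shows no difference between treated mutants and WT for either gene, and their values here rest on the counts.

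Among the feedback genes, Trib3, a pseudokinase that binds ATF4 and CHOP, had 1.42, 1.59 and 2.23 CPM in R191H + 2BAct and between 0.693 and 1.37 CPM in WT (median 1.10). The groups did not overlap, though these levels rest on 26 to 32 reads in treated mutants and 10 to 20 reads in WT. The log2 fold-change was 0.69 (95% interval 0.057 to 1.33, adjusted p = 0.848), beside 3.15 in R191H + placebo, which had 8.87, 9.07 and 13.3 CPM. Ppp1r15a, the phosphatase subunit GADD34, was at 1.42, 1.14 and 1.40 CPM against 0.699 to 1.59 CPM (0.01), and it did not pass in R191H + placebo either (0.13). Eif4ebp1, a repressor of cap-dependent translation, had 0 unique reads in each library and could not be tested. Its deposited TPM, which also draws on reads shared between genes, was 0.0468, 0.0191 and 0.0329 in R191H + 2BAct and between 0.00501 and 0.0429 in WT, and 0.123, 0.233 and 0.200 in R191H + placebo. The whole list of ISR transcription factors and feedback genes (9 tested) had a median of 0.12, with 7 above and 2 below WT. An unadjusted p under 0.05 was found for 3, all higher, where 2.63% of all genes were. The 3 were Atf5, Nupr1 and Trib3, and Atf5 and Trib3 are also in the panel.

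The amino acid transporters lay near WT. Slc7a5, the light chain of the large neutral amino acid transporter, had 74.4, 72.1 and 82.6 CPM in treated mutants, inside the WT range of 65.6 to 87.6 CPM (median 72.9), while R191H + placebo had 232, 196 and 229 CPM. Its log2 fold-change was 0.05 with a 95% interval of -0.11 to 0.21. Slc3a2, its heavy chain, had 5.45, 5.80 and 7.39 CPM against 3.92 to 6.65 CPM (0.21). Slc7a11, the cystine transporter, had 85.0, 85.3 and 73.7 CPM, against 63.3 to 75.5 CPM in WT and 194, 215 and 184 CPM in R191H + placebo, so that 2 of 3 treated mice lay above each WT mouse. The log2 fold-change was 0.22 (95% interval 0.067 to 0.36, adjusted p = 0.802). Slc38a2, a neutral amino acid transporter, was at 297, 308 and 342 CPM against 258 to 299 CPM (0.16, adjusted p = 0.802). Over the 7 transporters tested the median was 0.05, with 2 at an unadjusted p under 0.05, both higher, where 2.63% of all genes were. The lowest was Slc7a1, a transporter of cationic amino acids, at -0.25 (adjusted p = 0.943).

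No enzyme of amino acid and one-carbon metabolism passed. Of 14 tested, 9 were above and 5 below WT, with a median of 0.0066 and none at an unadjusted p under 0.05. Asns, asparagine synthetase, had 8.17, 8.99 and 6.70 CPM against 6.57 to 10.2 CPM, a log2 fold-change of -0.10. Phgdh, which starts serine synthesis, had 43.1, 51.0 and 52.2 CPM in treated mutants and between 34.1 and 52.7 CPM in WT, with 79.5, 80.4 and 86.6 CPM in R191H + placebo. The log2 fold-change of Phgdh was 0.28 against WT + 2BAct and -0.10 against WT + placebo, and neither passed. Of 18 aminoacyl-tRNA synthetases and related genes, 11 were above and 7 below WT, with a median of 0.04. Nars, the asparaginyl-tRNA synthetase, had the smallest p of them, with 190.1, 203.9 and 197.5 CPM against 167.5 to 189.8 CPM (0.12, adjusted p = 0.852), and Aars (0.07) and Xpot, the tRNA exporter (0.08), overlapped with WT.

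**Figure D2:**
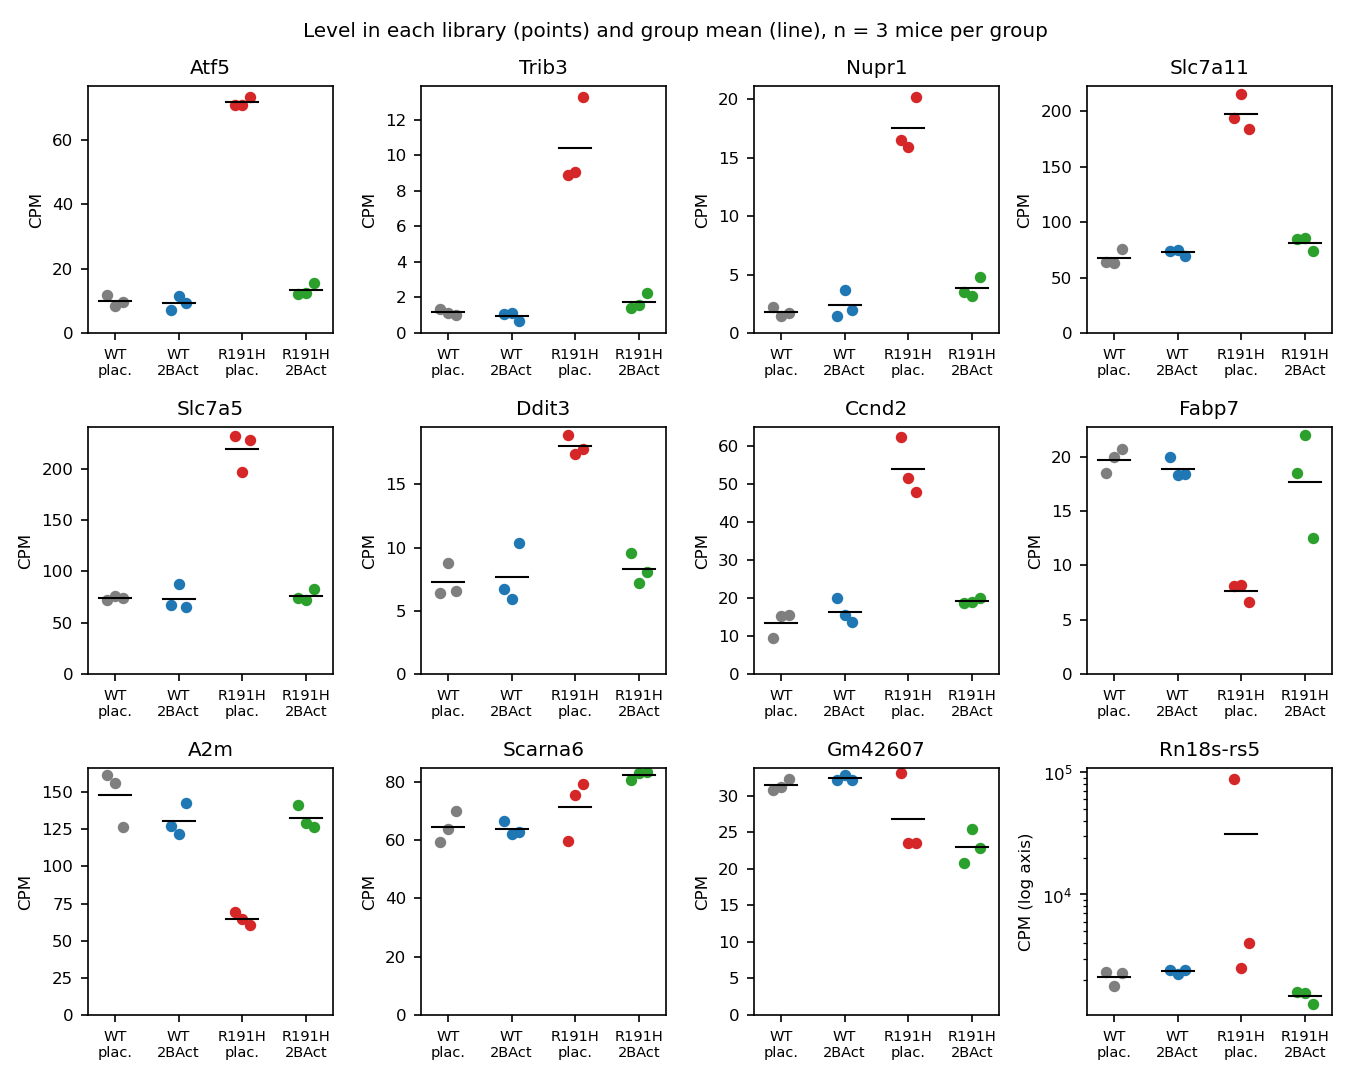
CPM in each library (points, linear axis from 0 except for Rn18s-rs5, which is on a log axis) and group means (lines) of 12 genes in the 4 groups of females, 3 mice each. The ISR genes of R191H + 2BAct lie near WT and far from R191H + placebo, with Atf5 and Trib3 just above the WT points, and Rn18s-rs5 reaches 87184 CPM in 1 library of R191H + placebo.

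A list of R191H genes was taken from the male mice, which share no library with the females. It holds the genes past the threshold in 1 direction at 2, 5 and 7 months, 28 higher and 4 lower in R191H. At these ages 0.411%, 0.869% and 0.389% of genes passed as higher and 0.0737%, 0.398% and 0.116% as lower. 18 of the 28 and all 4 of the others could be tested in females, and each of these 22 passed in R191H + placebo against WT + placebo, where 0.476% of genes were higher and 0.298% lower. In R191H + 2BAct against the 6 WT libraries none passed. The 18 had a median of 0.08, beside 0.98 in R191H + placebo, and the 4 had a median of -0.10 beside -1.06. Of the 18, 16 were above WT, as 49.4% of all genes were. An unadjusted p under 0.05 was found for 5, all higher, where 2.63% of all genes were. The 5 were Trib3, Nupr1, Atf5, Ccnd2 and Slc7a11.

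Against WT + 2BAct, a comparison with no library in common with that of the placebo groups, the medians were 0.11 for the 18 and -0.01 for the 4. Ccnd2, the cyclin D2 gene, had 18.6, 18.9 and 19.9 CPM in treated mutants, 9.44 to 19.9 CPM in WT and 62.3, 51.6 and 47.8 CPM in R191H + placebo. Tnc, the matrix protein tenascin C, had 3.38, 4.78 and 3.49 CPM, against 1.94 to 4.19 CPM and 6.57, 9.07 and 9.30 CPM. The genes lower in the mutant include genes of astrocytes. Fabp7, a fatty acid binding protein of radial and Bergmann glia, had 18.5, 22.0 and 12.6 CPM in treated mutants, on both sides of the WT range of 18.3 to 20.7 CPM, and 8.05, 8.22 and 6.64 CPM in R191H + placebo. A2m, the protease inhibitor alpha-2-macroglobulin, had 141.7, 129.2 and 126.8 CPM, within 122 to 161.3 CPM, beside 69.2, 64.7 and 60.8 CPM. Ntsr2, a neurotensin receptor, had 37.7, 48.6 and 39.5 CPM against 40.9 to 47.1 CPM, beside 27.4, 20.7 and 22.4 CPM.

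**Figure D3:**
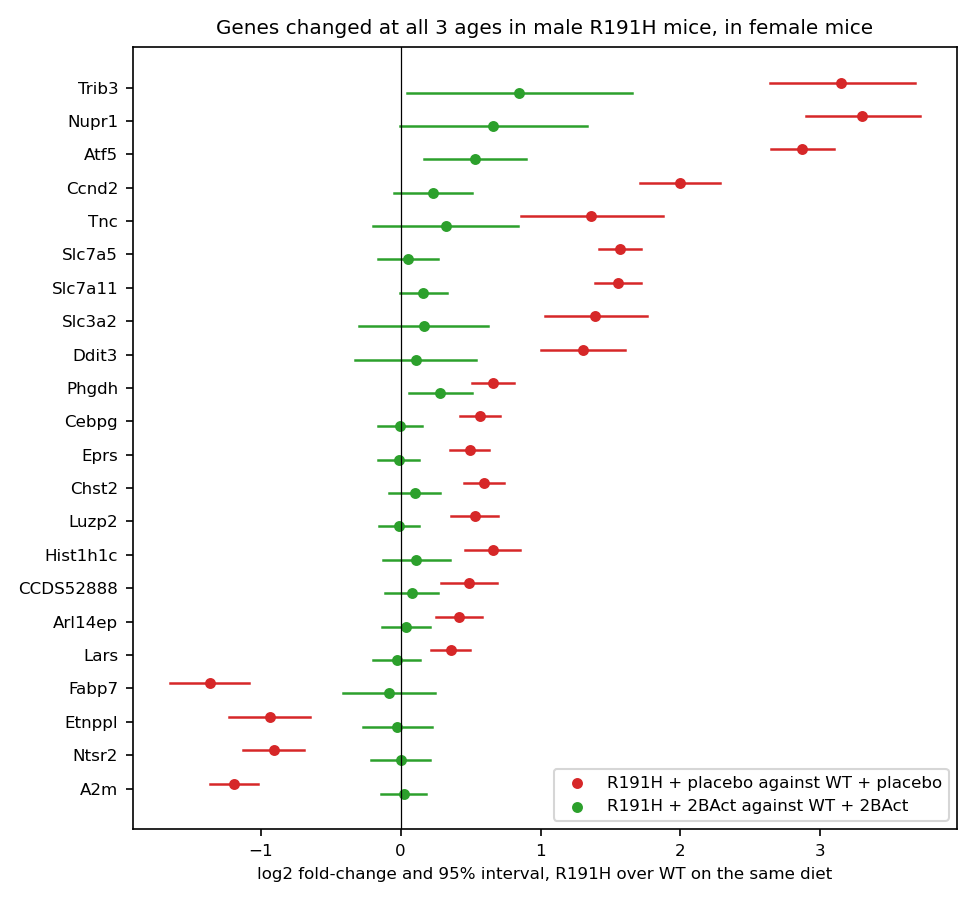
Log2 fold-change and its 95% interval for the 22 genes of the male list tested in females, R191H over WT on the same diet (3 against 3 mice in each comparison). On placebo (red) each gene differs from 0, with medians of 0.98 and -1.06, and on 2BAct (green) the points lie near 0, with Trib3 (0.84), Nupr1 (0.66) and Atf5 (0.53) highest.

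The difference of the R191H effect between the diets was tested for each gene as an interaction over the 12 libraries. 16 of 10200 genes (0.157%) passed, 7 with a positive difference (0.0686%) and 9 with a negative one (0.0882%). Among the genes described, the effect on 2BAct was smaller than on placebo for Nupr1 (-2.64), Atf5 (-2.34), Trib3 (-2.31), Ccnd2 (-1.76), Slc7a5 (-1.52) and Slc7a11 (-1.39), and the fall was smaller for Fabp7 (1.28), A2m (1.21) and Ntsr2 (0.91), all on the log2 scale. Ddit3 did not pass (-1.20, SE 0.26, adjusted p = 0.0678), and neither did Slc3a2 (-1.23, adjusted p = 0.112) or Tnc (-1.04, adjusted p = 0.684).

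The letters TGATGNAA stood in the promoters of 6 of 21 higher genes of the male list that have a RefSeq promoter (Arl14ep, Calcrl, Chac1, Nupr1, Slc7a11 and Trib3), and of 4.51% of all genes. Both promoters printed above hold them, once in Nupr1 and 2 times in Slc7a11. A match describes letters only.

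Of the 78 genes past the threshold in R191H + placebo against WT + placebo, 48 were higher and 30 lower. Without R191H + placebo replicate 3 the count was 36. All could be tested against WT + 2BAct, where 38 of the 48 and 14 of the 30 kept their direction. The median of the higher genes was 0.58 on placebo and 0.09 on 2BAct, and that of the lower genes -0.52 and 0.02. 8 had an unadjusted p under 0.05 in the same direction, where 4.90% of all genes had one in either direction (2.48% higher and 2.42% lower): Atf5, Trib3, Phgdh, Pde10a and the small nucleolar RNA Gm23262 among the higher genes, and Mapre2, Tob2 and Rsrp1 among the lower. None of the 8 passed the threshold, and 1 of the 78, Rn18s-rs5, passed in the opposite direction.

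For Atf5 and Trib3 the effect on 2BAct was smaller than on placebo past the threshold of the interaction, as given above. The difference was -0.38 for Phgdh (95% interval -0.65 to -0.11) and -0.31 for Gm23262 (interval -0.58 to -0.05), and neither passed. For Pde10a the log2 fold-change was 0.55 on placebo and 0.77 on 2BAct, a difference of 0.22 with a 95% interval of -0.23 to 0.67. For Mapre2 it was -0.40 and -0.37 (difference 0.036, interval -0.25 to 0.32), for Tob2 -0.41 and -0.35 (difference 0.056, interval -0.22 to 0.34) and for Rsrp1 -0.95 and -0.61 (difference 0.34, interval -0.25 to 0.93). In male mice, where Atf5 and Trib3 passed at each age, Pde10a was at -0.40, -0.26 and -0.16 at 2, 5 and 7 months. At the same ages Mapre2 was at -0.024, -0.23 and -0.036 and Rsrp1 at -0.083, -0.097 and -0.27. Tob2 was at 0.12, -0.58 (edgeR adjusted p = 0.0709) and -0.17. None of these 4 passed at any age. The 4 were chosen for this paragraph after their values were seen.

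Transcripts of the unfolded protein response that IRE1 and ATF6 control did not pass, in treated or in untreated mutants. Of 22 tested, 18 were above WT, the median was 0.09, and 1 had an unadjusted p under 0.05. That was Canx, the lectin chaperone calnexin, with 35.3, 38.5 and 35.2 CPM in R191H + 2BAct and between 28.2 and 31.9 CPM in WT, a log2 fold-change of 0.26 (SE 0.073, adjusted p = 0.618). R191H + placebo had 34.7, 33.8 and 30.5 CPM. Hsp90b1 (0.13) and Derl2 (0.13), a chaperone and a factor of protein export from the endoplasmic reticulum, overlapped with WT. Among 7 heat shock genes Hsph1, a chaperone co-factor, was at -0.42 (adjusted p = 0.802).

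No gene of the translation factor itself passed with edgeR, and limma on ln TPM called Eif2b3 lower (-0.48). The 5 Eif2b subunits had log2 fold-changes between -0.30 (Eif2b3) and 0.24 (Eif2b2), and each interval held 0. Among 6 eIF2 subunits and kinases the range was -0.15 to 0.14, with Eif2ak3, the kinase PERK, at 0.14, Eif2ak4, the kinase GCN2, at -0.15, and Eif2s1, the subunit that is phosphorylated, at 0.09.

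No glial or myelin transcript passed the threshold. The 9 myelination genes had a median of 0.06, with none at an unadjusted p under 0.05. In R191H + placebo against WT + placebo their median was -0.17 and 0 of 9 passed, so the lack of calls in treated mutants does not show a correction. Cnp, a myelin enzyme, was at 0.23, with 9.04 to 13.2 CPM in treated mutants and 7.25 to 14.4 CPM in WT. The 16 sterol genes, which myelin formation draws on, had a median of 0.03, beside a median of -0.27 in R191H + placebo, where 1 passed. Insig1, a brake on sterol synthesis, was at 0.09. Markers of astrocytes and Bergmann glia (11 tested) had a median of -0.03, those of oligodendrocytes (11 tested) 0.08 and those of microglia (4 tested) 0.02, and none had an unadjusted p under 0.05. In R191H + placebo the medians were -0.25, -0.39 and -0.17. There 3 of 11, 1 of 10 and 0 of 4 passed, where 0.774% of all genes did. Gfap, the astrocyte filament protein, was at 0.09 (SE 0.090).

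**Figure D4:**
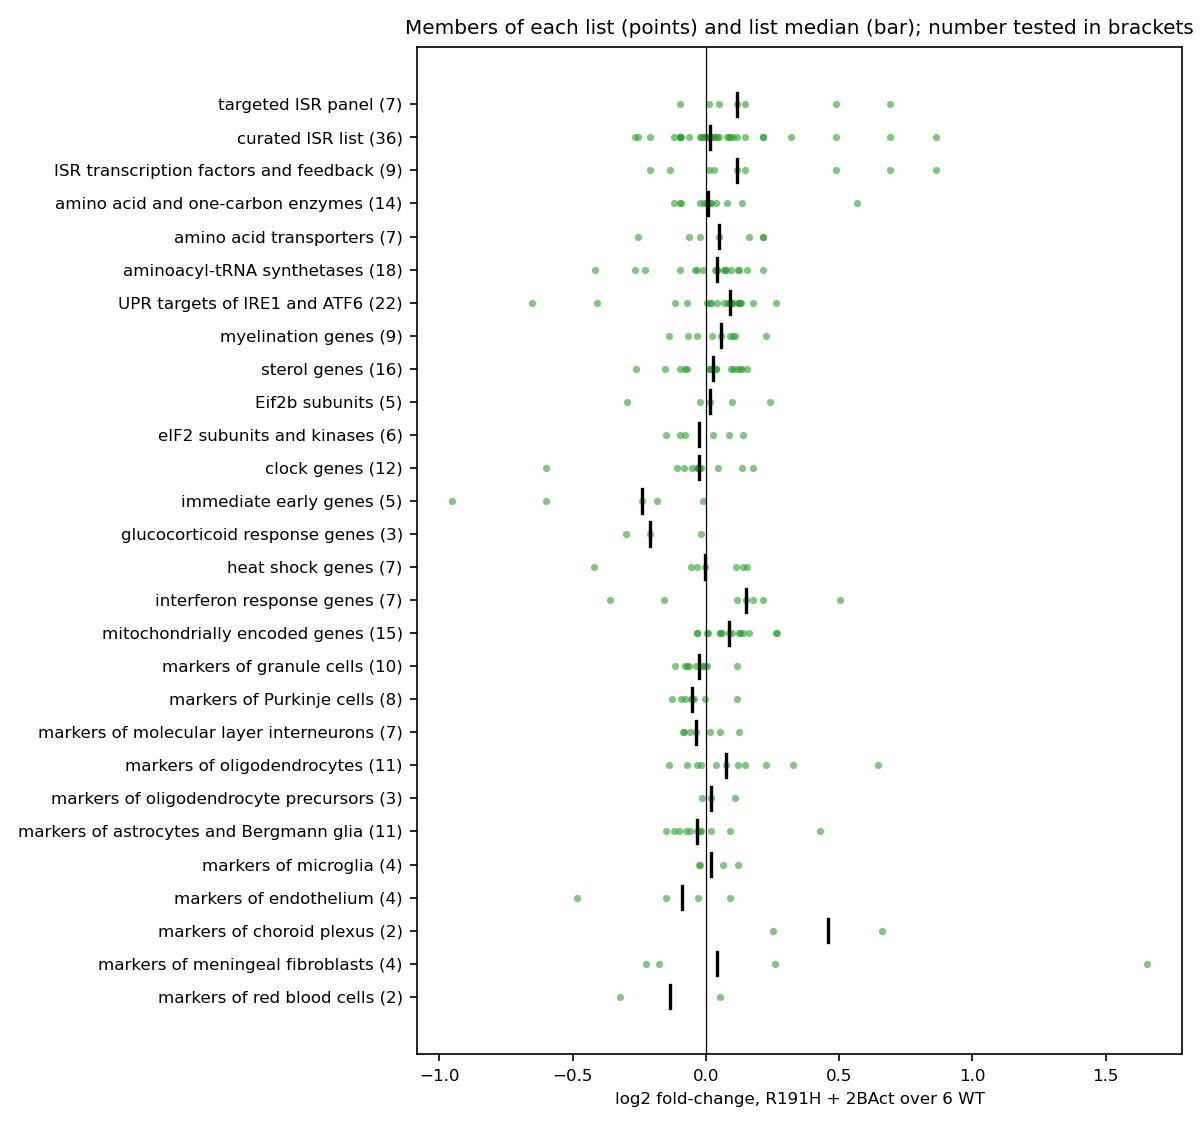
Log2 fold-change of R191H + 2BAct over the 6 WT libraries for the tested members of each list (points) and the list medians (bars). Medians lie between -0.24 (immediate early genes) and 0.46 (2 choroid plexus markers), and no member passed the threshold.

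Of 13 immediate early genes, which neuronal activity induces, 5 were tested. Their log2 fold-changes were all below 0, from -0.95 (Fos) to -0.011 (Dusp1) with a median of -0.24, and none lay below all WT libraries. Fos had 6.64, 26.4 and 23.9 CPM in treated mutants and 13.7 to 52.1 CPM in WT (-0.95, adjusted p = 0.802), and Nr4a1 had 11.9, 22.0 and 33.3 CPM against 11.8 to 48.3 CPM (-0.60). Both overlapped with WT. Ttr, the transthyretin gene of choroid plexus, had 1082, 566 and 301 CPM against 182 to 680 CPM, a log2 fold-change of 0.66 with a 95% interval of -0.078 to 1.40, and R191H + placebo ranged from 10.3 to 787 CPM. Of 4 markers of meningeal fibroblasts 2 had an unadjusted p under 0.05 above WT, Slc6a13 (1.66) and Igf2 (0.26), where 2.63% of all genes had one, and Dcn (-0.22) and Col1a2 (-0.18) were below. Their summed level was 75.7 to 88.1 CPM in treated mutants and 67.0 to 93.5 CPM in WT. Of 2 red blood cell markers Hbb-bs was at -0.32 and Hba-a2 at 0.054. Their part in the other results was not tested. The clock genes (12 tested, median -0.03), 3 glucocorticoid response genes (-0.21) and 7 interferon response genes (0.15) had 0 members past the threshold with edgeR, and 1 of them, H2-D1, had an unadjusted p under 0.05 (-0.16).

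Summed small nucleolar RNAs were above WT, a pattern chosen for description after the values were seen. Of 38 snoRNAs tested, 32 were above WT and 15 had an unadjusted p under 0.05, all higher, where 2.63% of all genes were. Their median was 0.32. All 8 scaRNAs had values above 0, with a median of 0.17, but 1 lay above all WT libraries, 2 had an unadjusted p under 0.05, and their summed level overlapped, with 483 to 529.8 CPM in treated mutants and 430 to 489.7 CPM in WT. Summed over the class, snoRNAs held 1734 to 2112 CPM in R191H + 2BAct and 1470 to 1620 CPM in WT, which do not overlap, and 1594 to 1793 CPM in R191H + placebo. The median of the snoRNAs was 0.22 against WT + 2BAct and 0.47 against WT + placebo, and 0.54 in R191H + placebo against WT + placebo, so the height depends on the WT group. Scarna10, which lies within an exon of Ncapd2, had 746, 619 and 668 CPM against 530 to 605 CPM (0.27, adjusted p = 0.160). Snora15, which lies within an exon of Cct6a, had 1.42, 1.14 and 1.26 CPM against 0.274 to 0.416 CPM (1.90, adjusted p = 0.0739), a level of few reads.

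The 31 snRNAs had a median of 0.16, which was 0.0091 against WT + 2BAct and 0.31 against WT + placebo. Of 22 genes of the class misc_RNA, whose median was 0.12, 6 had an unadjusted p under 0.05, all higher, where 2.63% of all genes were. Transcripts annotated as TEC, a class of unclassified and often intronic models to which Gm42607 belongs, were above WT in 120 of 386 cases (31.1%, beside 49.4% of all genes), with a median of -0.05. At an unadjusted p under 0.05, 37 were lower and 2 higher, where 2.85% of all genes were lower and 2.63% higher. The mitochondrial rRNA mt-Rnr2 was at 0.16 and mt-Rnr1 at 0.13. Of 15 mitochondrially encoded genes 13 were above WT (median 0.09), with a median of -0.0089 against WT + 2BAct and 0.19 against WT + placebo. The median of protein-coding genes was 0.00063 (8826 tested). The part of these classes in the other results was not tested.

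**Figure D5:**
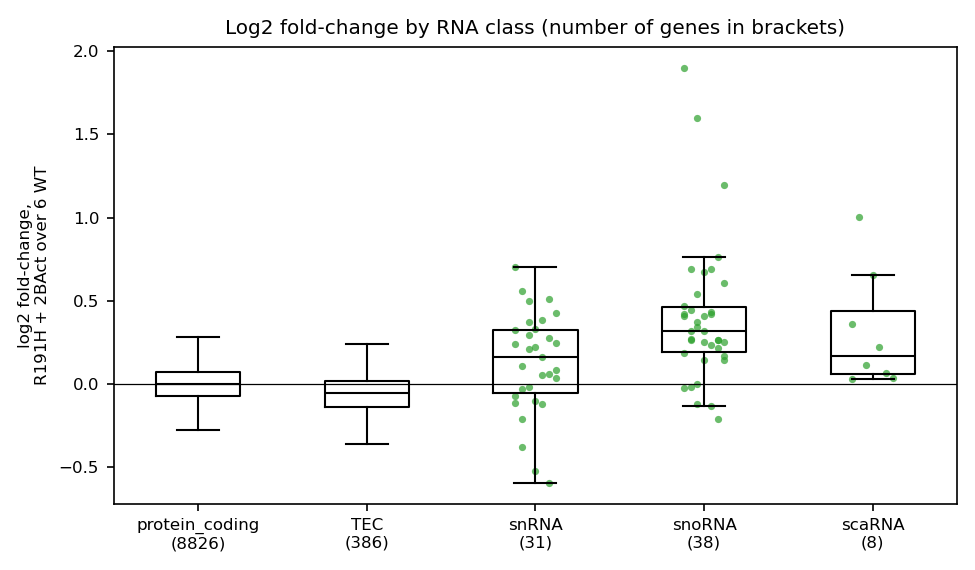
Log2 fold-change of R191H + 2BAct over the 6 WT libraries by annotated RNA class (boxes: quartiles and median, whiskers to 1.5 interquartile ranges, points: single genes in classes under 100 genes). The snoRNA median is 0.32 and the TEC median -0.05, beside 0.00063 for protein-coding genes.

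The WT groups were also used 1 at a time, and the gene that passed differed. Against WT + 2BAct 1 of 10049 genes passed (0.00995%), Rn18s-rs5, which was lower, with 492 at an unadjusted p under 0.05. Against WT + placebo 1 of 10100 passed (0.00990%), Gm23262, which was higher, with 508 at an unadjusted p under 0.05 (5.03%). Gm23262 lies within an exon of Eif4g2 on the same strand, and whether its reads come from that gene was not tested. WT + 2BAct against WT + placebo gave 0 of 10054 genes with edgeR and 353 at an unadjusted p under 0.05. Atf5 was at 0.53 against WT + 2BAct and 0.45 against WT + placebo, Trib3 at 0.84 and 0.56, Nupr1 at 0.66 and 1.09, and Slc7a11 at 0.16 and 0.27.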

How the data were processed

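RNA of frozen cerebella was depleted of ribosomal RNA (TruSeq Stranded Total RNA with Ribo-Zero). Per the labels and methods, the authors mapped reads to mm10 and a GENCODE annotation with STAR 2.5.3a and estimated expression with MMSEQ and mmcollapse. They deposited unnormalized counts of unique reads per gene and abundances in natural log units (ln TPM), in which the 3 R191H + 2BAct values are 1 shared constant for 1199 of 10159 genes tested. Most counts are even (86.8% to 88.1% of those above 0), so both reads of a pair mostly count. The authors' columns of effects and posterior probabilities were not used.

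Counts were tested here with edgeR 4.0.16 (R 4.3.3), glmQLFit and glmQLFTest, TMM and filterByExpr (minimum count 10, minimum total 15), which kept 10159 of 10512 genes in the main comparison. P-values were adjusted by Benjamini-Hochberg with a threshold of 0.05. DESeq2 1.42.0 and limma 3.58.1 were alternatives. Displayed CPM use TMM factors over the 12 female libraries. Intervals are 95%. Positions are from GENCODE vM21, matched for 140 of 146 genes named or in the male list. Reads carry no molecular identifiers, and precision was taken from the spread between mice.

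Members, lists and tests were chosen with earlier results of these data known. Genes were named by rule: the panel, the Eif2b subunits, the 20 smallest p-values, up to 20 genes of the male list by mean change, and up to 4 of smallest p from each list. Replicates differed by more than counting noise (chi-square per degree of freedom 4.70 to 140.0). Equal replicate numbers are different animals, and deviations of equally numbered libraries correlated at -0.15 to 0.081 over 9 pairs (other pairs -0.14 to 0.22), so the numbers do not pair the samples. Some genes that the rule names are not reported here.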

Additional observations from a re-analysis of the deposited data

Results flagged for a closer look

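For 6 named genes, 1 of the 6 WT libraries stood apart by Dixon's criterion on the gap to the next library over the range, which chance gives in about 1 of 20 groups. These are 4.72% of the named genes, about as many as chance gives. They were Rn18s-rs5 in WT + placebo replicate 2 (1778 CPM, next 2256, gap over range 0.748), Nupr1 in WT + 2BAct replicate 2 (3.65 CPM, next 2.26, 0.6255), Cnp in WT + placebo replicate 3 (14.4 CPM, next 9.88, 0.629), Cry1 in WT + 2BAct replicate 2 (44.6 CPM, next 47.7, 0.687), Btg2 in WT + 2BAct replicate 1 (42.8 CPM, next 32.1, 0.643) and Tsc22d3 in WT + placebo replicate 3 (18.5 CPM, next 11.9, 0.693).

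For 9 named genes the R191H effect differed between the diets by the interaction test. On the log2 scale, the effect on 2BAct minus that on placebo was -2.64 for Nupr1, -2.34 for Atf5, -2.31 for Trib3, -1.76 for Ccnd2, -1.52 for Slc7a5, -1.39 for Slc7a11, 1.28 for Fabp7, 1.21 for A2m and 0.91 for Ntsr2.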

How the results depend on the processing

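The count of 3 genes in R191H + 2BAct against pooled WT was 9 with DESeq2 (3 higher and 6 lower), 5 with library totals in place of TMM (0 higher and 5 lower), 0 without mitochondrial and ribosomal RNA genes, 1 in 3 groups against the mean of the WT groups, 1 against either WT group alone and 0 with all 12 libraries. With the replicate number as a block it was 1. Leaving out 1 library gave 0 to 5 genes: 0 without R191H + 2BAct replicate 3, 5 without R191H + 2BAct replicate 2 and 1 without WT + 2BAct replicate 2, WT + 2BAct replicate 3 or WT + placebo replicate 1. Limma on ln TPM as deposited gave 390 genes, 377 of them lower, with a median over all genes of -0.30, and 2 genes once each library was centred on its median, an alternative chosen after seeing the data. With limma on ln TPM as deposited, Ppp1r15a turned to -0.54, past the threshold, with 1 shared constant (0.301 TPM) in its 3 R191H + 2BAct libraries. Of the other named genes in the lists, Trib3 (0.50), Eif2b3 (-0.48), Fos (-1.70), Nr4a1 (-0.53), Btg2 (-0.50) and Col1a2 (-0.71) passed there too. Library totals moved the median of all genes by less than 0.1.

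For the 3 called genes no alternative changed the sign. For the 123 other named genes that were tested, 135 of 2676 values had another sign and 26 passed the threshold, or 75 and 15 of 2553 values without limma on ln TPM as deposited.

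R191H + placebo against WT + placebo gave 78 genes, 36 to 80 when 1 library was left out (36 without R191H + placebo replicate 3) and 138 with the replicate block. Against WT + 2BAct the count of 1 was 4 with DESeq2 and 0 to 3 without 1 library (0 without WT + 2BAct replicate 3). Against WT + placebo it was 5 with DESeq2, 9 with the replicate block and 1 to 6 without 1 library (6 without R191H + 2BAct replicate 2). The interaction count of 16 was 26 with DESeq2, 15 with the replicate block and 12 to 19 without 1 library. The cause of these changes was not tested. The replicate numbers mark no shared animal. With R191H genes of the male mice at 2 months alone, 28 and 7 genes were tested, with medians of 0.05 and -0.10.

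The levels of low genes such as Trib3 and Snora15 rest on few reads, and 3 against 6 mice limit what can be called for small differences.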
